A study of Mus musculus with 6 samples.

Results

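The genes described here are a set of endothelial surface and junction genes: Tek, Tie1, Eng, Cdh5, Pecam1, Cd34, Esam, Ramp2, Egfl7 and Rasip1. Every probe set was taken whose gene name, or older synonym, in the authors' comparison table was one of these 10. This gave 9 probe sets of 5 genes, out of 12254 named genes in all: 4 of Ramp2, 2 of Egfl7 and 1 each of Tek, Eng and Cdh5. The other 5 genes are not analysed here. The cells were CGR8 mouse embryonic stem cells, differentiated in embryoid bodies and sorted on day 5 by flow cytometry on 2 surface proteins, CXCR4 and FLK-1, the product of Kdr. The double-positive group (CXCR4+/FLK+, 3 samples) was set against the double-negative group (CXCR4-/FLK-, 3 samples). No other treatment or genotype is given in the labels, CGR8 is a single embryonic stem cell line, and the cells came from mixed aggregates. The series text calls the profiled RNA pools, so p-values measure the spread between these samples. Each sample was hybridised to an Affymetrix Mouse 430 2.0 array.

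Endothelial cells line blood vessels. In the embryo they arise from mesoderm that carries FLK-1, and they are held together by adherens and tight junctions made of cadherins and immunoglobulin-like adhesion proteins. TEK (TIE2) is the receptor tyrosine kinase for the angiopoietins, and endoglin, made from Eng, is a coreceptor for ligands of the TGF-beta and BMP family. CDH5, or VE-cadherin, is the adherens junction cadherin of endothelium. RAMP2 is a small membrane protein that brings the receptor CALCRL to the surface and makes it a receptor for adrenomedullin. EGFL7 is a secreted protein of endothelial cells rather than a surface or junction protein, and its gene hosts the microRNA miR-126.

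Stretches of 3 promoters are shown because they belong to a member that stood higher in double-positive cells (Tek), to the receptor partner of RAMP2 that did too (Calcrl), and to a member whose groups overlapped (Eng). Each runs 5′ to 3′ on the gene's strand, from 250 bases before to 50 bases after a RefSeq start site (GRCm38.p6): Tek at chr4:94739039-94739338 on the plus strand, Eng at chr2:32646345-32646644 on the plus strand and Calcrl at chr2:84425217-84425516 on the minus strand. Capitals mark matches, on either strand, to letters found in the sites of transcription factor families active in early endothelium. Those searched for ETS factors were AGGAAG. For the GATA factors, which also act in blood and heart, the letters searched were AGATAA. The SOX factors, a family that includes SOX7, were represented by the shorter run of letters ACAAT. No matches overlapped in these windows.
Tek: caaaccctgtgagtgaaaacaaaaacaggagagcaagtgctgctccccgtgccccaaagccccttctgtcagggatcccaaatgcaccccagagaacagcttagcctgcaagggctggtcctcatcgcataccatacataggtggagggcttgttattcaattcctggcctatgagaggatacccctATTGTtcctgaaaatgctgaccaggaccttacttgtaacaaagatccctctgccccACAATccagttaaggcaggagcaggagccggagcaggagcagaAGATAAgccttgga
Eng: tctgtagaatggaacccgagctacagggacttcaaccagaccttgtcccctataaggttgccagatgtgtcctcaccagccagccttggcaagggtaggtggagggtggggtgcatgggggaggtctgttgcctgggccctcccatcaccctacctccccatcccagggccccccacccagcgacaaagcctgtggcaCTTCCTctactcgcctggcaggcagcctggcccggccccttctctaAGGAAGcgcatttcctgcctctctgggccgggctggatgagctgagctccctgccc
Calcrl: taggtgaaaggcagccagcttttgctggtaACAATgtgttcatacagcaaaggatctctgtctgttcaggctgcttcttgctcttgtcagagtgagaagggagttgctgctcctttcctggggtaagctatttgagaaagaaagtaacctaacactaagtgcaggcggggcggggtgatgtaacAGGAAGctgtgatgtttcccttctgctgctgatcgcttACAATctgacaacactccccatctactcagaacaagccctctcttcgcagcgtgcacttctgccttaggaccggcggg
The Tek window held 2 matches to the SOX letters and 1 to the GATA letters. The Eng window held 2 matches to the ETS letters, and the Calcrl window held 1 to the ETS letters and 2 to the SOX letters. Of all 32851 promoter windows in the RefSeq table, 35.4% held the ETS letters, 11.2% the GATA letters and 31% the SOX letters.

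The microRNA hosted by Egfl7 is shown because these arrays read the transcript of its host gene. Its mature form, mmu-miR-126a-3p in RefSeq, lies at chr2:26591402-26591423 on the plus strand, within the Egfl7 gene (chr2:26581083-26592682, GRCm38.p6). Capitals mark its seed, bases 2 to 8.
mmu-miR-126a-3p: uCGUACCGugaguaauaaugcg
The level of miR-126 itself was not measured.

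All values are ratios to the median of the 3 double-negative arrays for the same probe set, as the authors deposited them. They compare arrays and give no level of one gene against another. In bulk samples, fewer cells of a type and less RNA per cell cannot be told apart. Of the 6 arrays, double-negative replicate 1 stood apart. The 3′ to 5′ signal ratio of its Gapdh and Actb control probe sets was 4.08 times the double-negative median, against 0.963 to 1.42 on the 3 double-positive arrays and 0.982 and 0.988 on the other 2 double-negative arrays. The globin gene Hbb-bh1 stood at 37.4 on that array and at 1 and 0.341 on the other 2 double-negative arrays. Results are therefore also given without it. Transcripts of both sorted proteins were higher in the double-positive cells, with log2 differences of 2.47 for Cxcr4 and 2.62 for Kdr and no overlap between groups.

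Of the 9 probe sets, 5 had a higher and 4 a lower mean in double-positive cells. Only Tek and 1 of the 4 Ramp2 probe sets had all 3 double-positive values above all 3 double-negative ones, and none had all 3 below. Over all 45037 probe sets, 5.64% were separated in the higher direction and 4.84% in the lower. None of the 9 passed the adjusted threshold of 0.05 in limma's moderated test, and over all probe sets 0% passed, with a smallest adjusted p of 0.176. At an unadjusted p under 0.05 the same 2 of 9 probe sets stood out, both higher, where 2.63% of all probe sets did so in that direction and 2.87% in the lower one. The 9 adjusted p-values ran from 0.732 to 0.999 in limma. With 3 arrays against 3, the exact permutation test used for single genes cannot go below p = 0.1.

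**Figure D1:**
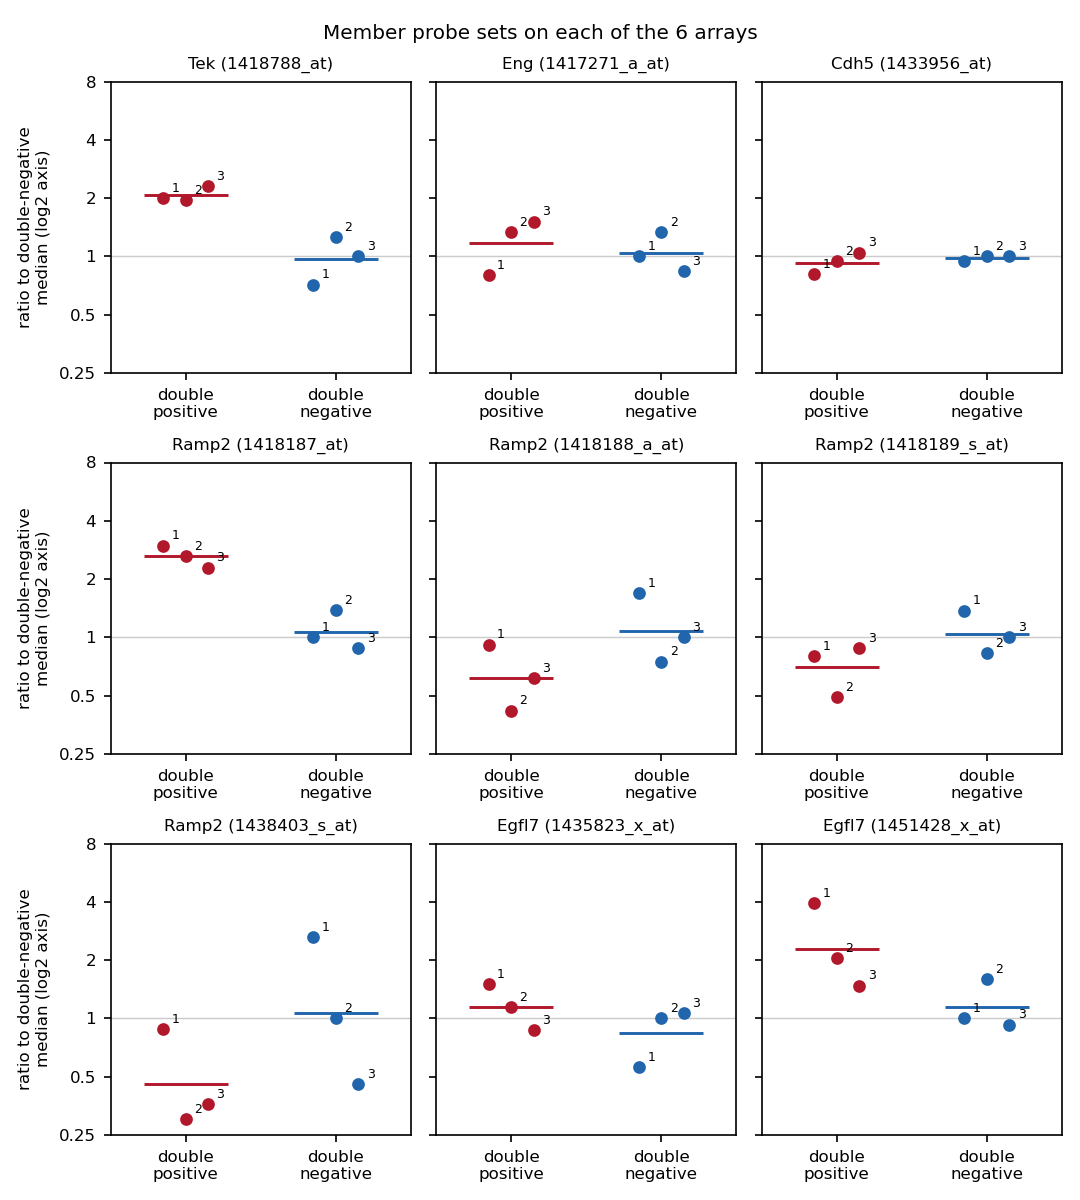
Deposited ratio of each of the 9 probe sets (log2 axis, relative to the double-negative median) on the 3 double-positive arrays (red, left) and the 3 double-negative arrays (blue, right). Points carry replicate numbers and bars are geometric means (n = 3). Tek and Ramp2 1418187_at separate the groups, while the other 3 Ramp2 probe sets have lower means in double-positive cells.

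Tek, the angiopoietin receptor gene, had a 2.16-fold higher mean in double-positive cells. Its ratios were 2.005, 1.96 and 2.31 in the 3 double-positive replicates and 0.714, 1.26 and 1 in the 3 double-negative replicates. The double-positive values lay close together and all exceeded the highest double-negative value, that of replicate 2. The log2 difference was 1.11 (SE 0.378, 95% confidence interval 0.22 to 2.00, n = 3 per group), with an exact permutation p of 0.1 (two-sided) and an adjusted p of 0.83 in limma. Without double-negative replicate 1 the difference was 0.89. Over all 45037 probe sets, 6.05% had a difference at least as large as that of Tek. Among the 12254 named genes, by 1 probe set each, 1.65% did. Tek passed the authors' detection flag on 5 of the 6 arrays.

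Among the genes around TEK and TIE1, only 2 of 7 listed were measured. Grb14, an adaptor reported to bind the activated TEK receptor, had a log2 difference of 1.20 (SE 0.576) and Foxo1, a transcription factor held in check by angiopoietin signalling, one of -0.65 (SE 0.426). In both genes the groups overlapped, and without double-negative replicate 1 the differences were 0.66 for Grb14 and -1.0 for Foxo1. Angpt1 and Angpt2, the ligands, are not analysed here.

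Ramp2 gave contradictory readings. Probe set 1418187_at stood at 2.979, 2.637 and 2.291 in the 3 double-positive replicates and at 1, 1.384 and 0.877 in the 3 double-negative replicates. All 3 double-positive values were above the double-negative range, and the mean was 2.46-fold higher (log2 difference 1.30, SE 0.37, 95% confidence interval 0.43 to 2.17). Its exact permutation p was 0.1 and its adjusted p 0.732 in limma, and without double-negative replicate 1 the difference was 1.25.

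The other 3 Ramp2 probe sets had lower means in double-positive cells. Probe set 1418188_a_at stood at 0.917, 0.419 and 0.615 in the 3 double-positive replicates and at 1.693, 0.75 and 1 in the 3 double-negative replicates, a log2 difference of -0.81 (SE 0.484). For 1418189_s_at the values were 0.803, 0.492 and 0.883 against 1.377, 0.832 and 1 (-0.57, SE 0.415). In all 3 of them double-negative replicate 1 was the highest array and double-positive replicate 2 the lowest. Probe set 1438403_s_at had the widest spread, at 0.883, 0.303 and 0.36 in double-positive replicates against 2.634, 1 and 0.458 in double-negative ones (-1.22, SE 0.732). The groups of all 3 overlapped. Without double-negative replicate 1, the array with the high 3′ to 5′ ratio, the differences shrank to -0.49, -0.37 and -0.56 and kept their sign.

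**Figure D2:**
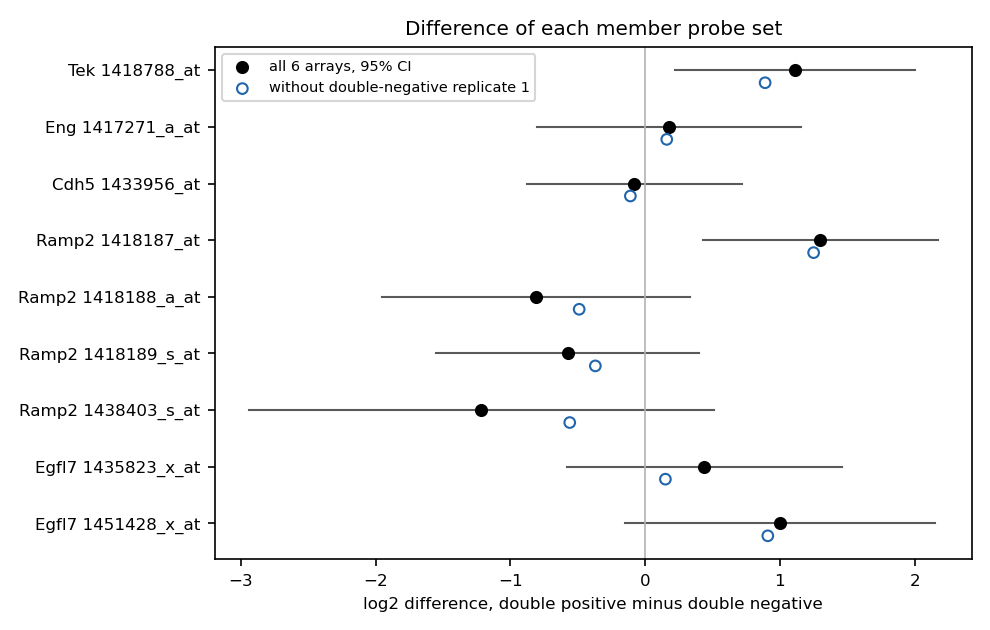
Log2 difference, double positive minus double negative, of each of the 9 probe sets (black, n = 3 per group), with 95% confidence intervals from limma. Open circles leave out double-negative replicate 1. Only Tek at 1.11 and Ramp2 1418187_at at 1.30 have intervals above 0.

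The size of the split between the Ramp2 probe sets was described, after it had been seen, by the log2 ratio of 1418187_at minus the mean of the other 3 on each array. This was 1.78, 2.73 and 1.98 in double-positive replicates against -0.87, 0.70 and 0.19 in double-negative ones, a difference of 2.16. Disagreement between probe sets of a gene was common. Of 3241 genes with at least 2 probe sets flagged on all 6 arrays, 36.7% had probe sets of both signs, and the median range of log2 differences within a gene was 0.28. Of the 409 of these genes with at least 4 such probe sets, as Ramp2 has, 63.3% had both signs and the median range was 0.54. The range of Ramp2, 2.51, was the widest of the 3241, ahead of Yes1 at 2.43. In Affymetrix names the suffixes _s_at and _x_at mark probe sets that can read transcripts of more than 1 gene, and _a_at those that read several transcripts of a gene.

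The values of another gene are given beside the 3 lower Ramp2 probe sets. Malat1, a long nuclear RNA gene on chromosome 19 that was chosen for this comparison after the values were seen, has 3 named probe sets. Their log2 differences were -0.47, -1.57 and -0.93 (SE 0.516, 0.731 and 0.462). On each of them double-negative replicate 1, the array with the high 3′ to 5′ ratio, was the highest, at 2.368, 5.708 and 1.701. The lowest array was double-positive replicate 3, 2 and 3 in turn, at 0.661, 0.448 and 0.414. On the 3 lower Ramp2 probe sets it was always double-positive replicate 2. Without double-negative replicate 1 the Malat1 differences were -0.05, -0.72 and -0.63. The name Ramp2 for 1418188_a_at, 1418189_s_at and 1438403_s_at is that of the authors' table, and other annotations of this array, not used here, may assign these 3 probe sets to Malat1. Their values, and any average that holds them, may therefore not be those of Ramp2, and which transcripts the 4 probe sets read was not tested. The direction of Ramp2 in this comparison therefore rests on 1 probe set, while averaging all 4 gave a log2 difference of -0.32.

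**Figure D3:**
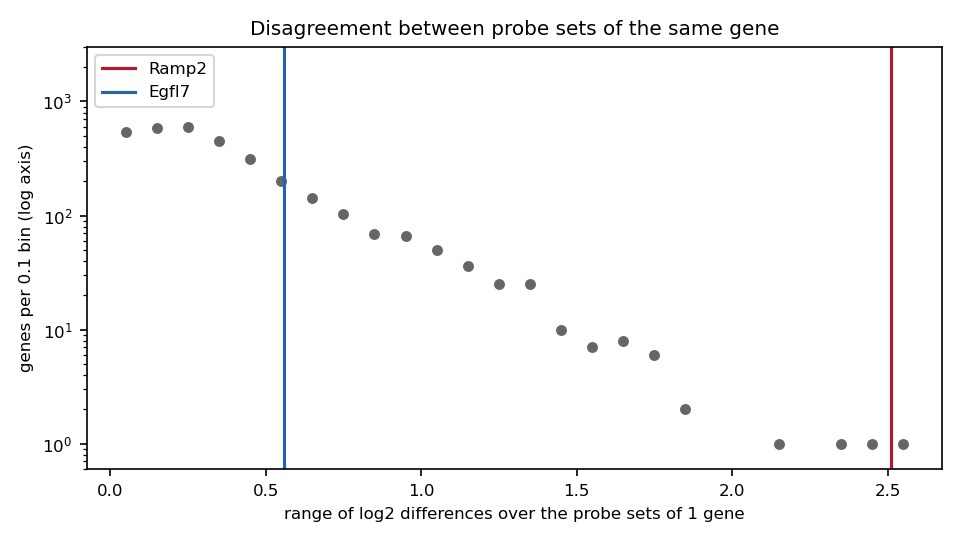
Number of genes (log axis) by the range of log2 differences among probe sets of 1 gene, in bins of 0.1, for 3241 genes with at least 2 probe sets flagged on all 6 arrays. Vertical lines mark Ramp2 at 2.51, beyond every other gene, and Egfl7 at 0.56.

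The genes around RAMP2 were separated in both directions. Calcrl, which encodes the receptor for adrenomedullin when paired with RAMP2, stood at 3.606, 2.205 and 2.504 in the 3 double-positive replicates and at 1, 1.222 and 0.742 in the 3 double-negative replicates. The groups did not overlap (log2 difference 1.49, SE 0.398, adjusted p 0.712 in limma, 1.51 without double-negative replicate 1), and Calcrl was flagged on 4 arrays. Ackr3, a receptor that takes up Cxcl12 and adrenomedullin, had a log2 difference of 3.31 (SE 0.535), with double-positive values from 6.403 to 14.55 against 0.671 to 1.849. Ramp1, which directs CALCRL to the peptide CGRP, was separated the other way, with double-positive values from 0.455 to 0.742 against 0.75 to 1.125 (-0.60, SE 0.393, flags on 3 arrays). The adrenomedullin gene Adm was at -0.39 (SE 0.389) and its groups overlapped, as did those of Calca and Calcr. Of 6 measured genes of this list, 2 had higher and 4 lower means, 0 passed the adjusted threshold in limma, and 2 had an unadjusted p under 0.05, both higher. Over all named genes, by 1 probe set each, 1.02% had an unadjusted p under 0.05 and were higher, and 2.44% were lower. Of the same genes 5.13% were separated upwards and 5.3% downwards.

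**Figure D4:**
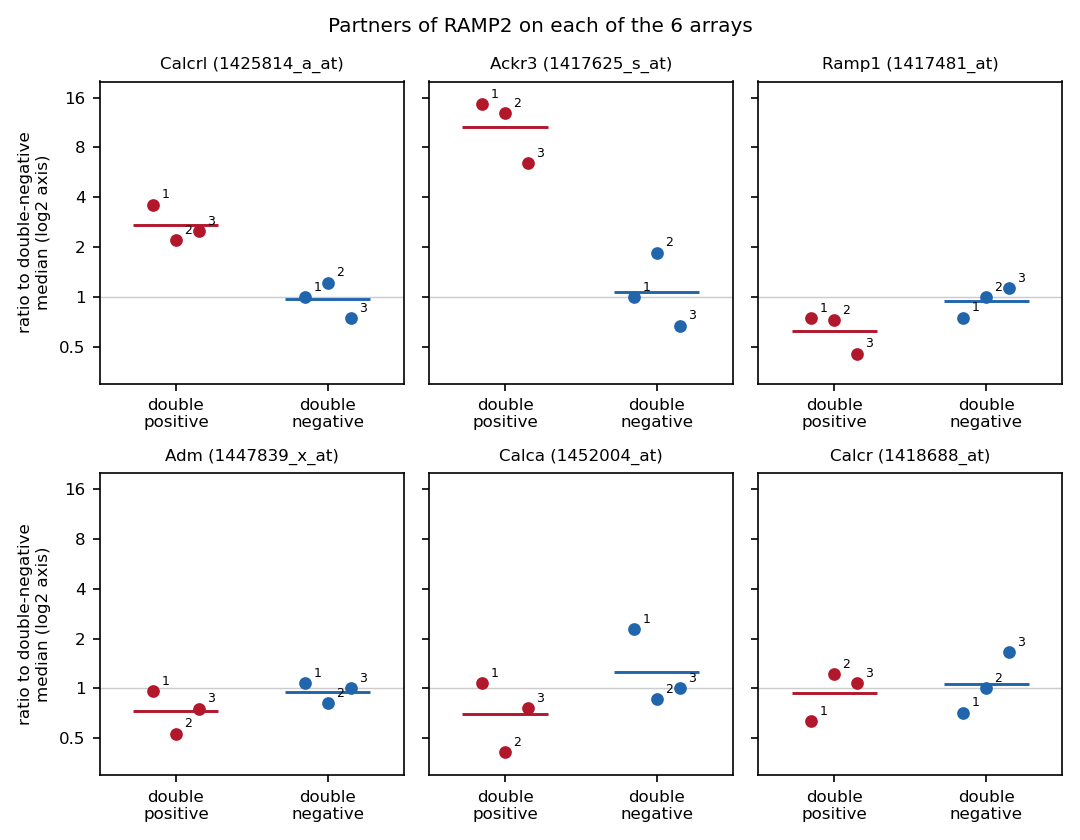
Deposited ratio (log2 axis, relative to the double-negative median) of 6 genes around RAMP2 on the 3 double-positive arrays (red, left) and the 3 double-negative arrays (blue, right). Bars are geometric means (n = 3). Calcrl and Ackr3 are separated upwards and Ramp1 downwards.

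Egfl7 had higher means on both of its probe sets, with overlapping groups. Probe set 1451428_x_at stood at 3.935, 2.043 and 1.476 in the 3 double-positive replicates and at 1, 1.595 and 0.929 in the 3 double-negative replicates, a 2.00-fold higher mean (log2 difference 1.0, SE 0.489, 95% confidence interval -0.15 to 2.15). Only double-positive replicate 3 fell within the double-negative range. Probe set 1435823_x_at stood at 1.506, 1.139 and 0.868 against 0.559, 1 and 1.062, a log2 difference of 0.44 (SE 0.432). On both probe sets double-positive replicate 1 was highest and replicate 3 lowest among the double-positive arrays. Without double-negative replicate 1 the differences were 0.91 and 0.15. The adjusted p-values were 0.963 and 0.992 in limma, and both probe sets carry the suffix of possible cross-hybridisation.

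EGFL7 has been reported to act on Notch receptors. All 9 listed Notch genes were measured, 6 with higher and 3 with lower means and a median log2 difference of 0.12, which turned to -0.11 without double-negative replicate 1. None passed the adjusted threshold in limma. The 2 with an unadjusted p under 0.05 were the Notch target genes Hey2 (1.44, SE 0.473) and Hey1 (1.02, SE 0.411), both without overlap between groups. Over all named genes 1.02% had such a p and were higher, and 5.13% were separated upwards. Without double-negative replicate 1 Hey2 was at 1.29 and Hey1 at 0.76. Leaving out both replicate 1 arrays gave 1.29 and 0.61. The receptor genes Notch1, Notch2, Notch3 and Notch4 had log2 differences of -0.10, 0.12, 0.07 and 0.62, and the endothelial ligand gene Dll4 one of -0.06. Without double-negative replicate 1 the receptor genes were at -0.56, -0.11, 0.06 and -0.40, with Notch2 and Notch4 changing sign, and Dll4 at -0.39. Without both replicate 1 arrays the receptor genes were at -0.06, 0.40, 0.16 and -0.05, and Dll4 at -0.42. Notch4 was flagged on 2 arrays.

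Eng, the endoglin gene, did not separate the groups. Its ratios were 0.803, 1.336 and 1.513 in the 3 double-positive replicates and 1, 1.329 and 0.836 in the 3 double-negative replicates. Double-positive replicate 1 was the lowest of all 6 arrays and replicate 3 the highest. The log2 difference was 0.18 (SE 0.416, 95% confidence interval -0.80 to 1.16), so changes of up to 2.24-fold lie within the interval, and the adjusted p in limma was 0.998. Without double-negative replicate 1 it was 0.16. Eng was flagged on 4 arrays.

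Receptors and effectors that work with endoglin went both ways. Of 14 measured genes 9 had higher and 5 lower means, with a median of 0.14, and 0 passed the adjusted threshold in limma. The type I receptor gene Acvrl1, which binds the same circulating BMPs as endoglin, was at -0.12 (SE 0.368), and the type II receptor gene Bmpr2 at 0.18 (SE 0.689, -0.26 without double-negative replicate 1). Id2, a target of BMP signalling, was the 1 member whose groups did not overlap and the 1 with an unadjusted p under 0.05, and it was lower in double-positive cells (-0.82, SE 0.333). Over all named genes 5.3% were separated downwards and 2.44% had such a p and were lower. Other targets of BMP signalling had higher means with overlapping groups, Id3 at 0.94 (SE 0.61) and the inhibitor gene Smad6 at 1.37 (SE 0.702), or 0.39 and 0.82 without double-negative replicate 1. Without double-negative replicate 1 the list's median was -0.23, a change of sign. The list's geometric mean was low on replicate 1 of both groups, at 0.673 in double-positive and 0.52 in double-negative cells. On the other arrays it was 1.32 and 1.31 against 1.22 and 1.05. Leaving out only the low double-negative array therefore pulls the median down.

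Cdh5 was nearly level across the arrays. Its ratios were 0.812, 0.947 and 1.046 in the 3 double-positive replicates and 0.942, 1.006 and 1 in the 3 double-negative replicates. The groups overlapped and the 6 values lay within a narrower band than those of the other 8 probe sets. The log2 difference was -0.08 (SE 0.339, 95% confidence interval -0.88 to 0.72, adjusted p 0.999 in limma), a range that allows a fold from 0.544 to 1.65. Cdh5 was flagged on 3 of the 6 arrays, and ratios alone do not tell a level transcript from a signal near background.

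Junction genes that work beside VE-cadherin had means on both sides. Of 14 measured, 5 had higher and 9 lower means, where 54.5% of all named genes had a higher mean. Their median was -0.22 (-0.47 without double-negative replicate 1), against 0.045 over all named genes, and 0 passed the adjusted threshold in limma. The geometric mean of these genes was low on replicate 1 of both groups, at 0.468 in double-positive and 0.539 in double-negative cells. On the other arrays it was 0.918 and 0.961 against 1.04 and 1.09. Leaving out only the low double-negative array therefore pulls the median down. In this list 1 gene was separated upwards and 2 downwards, where 5.13% and 5.3% of all named genes were. Cldn5, the tight junction claudin of endothelium, stood at 0.443, 0.285 and 0.427 in double-positive replicates, against 0.698, 1.06 and 1 in double-negative ones. Its groups did not overlap (log2 difference -1.26, SE 0.389, unadjusted p 0.014 and adjusted p 0.767 in limma, flags on 4 arrays). The tight junction adaptor gene Cgn was also separated downwards (-0.49, SE 0.374). Jam3, a junctional adhesion gene, was separated upwards (0.92, SE 0.421), but its other 2 probe sets pointed the other way and its difference was 0.58 without double-negative replicate 1. The catenin genes Ctnnb1, Ctnna1 and Ctnnd1, whose products tie cadherins to actin, were at 0.08, 0.08 and 0.62, with overlapping groups. They stood at -0.24, -0.37 and 0.06 without double-negative replicate 1, and at 0.15, 0.06 and 0.45 without both replicate 1 arrays.

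The 5 genes were also set against each other, as a description, since with 3 arrays against 3 no pair could pass the threshold of 0.05. In all 10 pairs, the per-array difference between the log2 ratios of 2 genes, each by 1 probe set, was compared between groups, with Ramp2 read by 1418187_at, the probe set that goes against its other 3. For 6 of the 10 pairs the groups were separated at the smallest possible exact permutation p of 0.1 (0.167 after Benjamini-Hochberg adjustment over the 10 pairs). Each of these 6 pairs holds Tek or Ramp2 1418187_at, which were already separated alone. The share of separated pairs among other genes was not computed. The log2 difference of Tek exceeded that of Eng by 0.93, of Cdh5 by 1.19 and of Egfl7 by 0.67. That of Ramp2 exceeded that of Egfl7 by 0.85, while Eng minus Ramp2 gave -1.11 and Cdh5 minus Ramp2 gave -1.38. Tek minus Ramp2 gave -0.19 (exact permutation p = 0.6). The median over the 5 genes was 0.44, against 0.045 over all 12254 genes, and without double-negative replicate 1 it was 0.16. The geometric mean of the 5 genes was 1.42 to 1.49 on double-positive arrays and 0.822 to 1.18 on double-negative ones.

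Of 18 measured genes among 34 other endothelial surface genes, 13 had higher and 5 lower means, with a median of 0.24, where 54.5% of all named genes had a higher mean. None passed the adjusted threshold in limma, and 3 were separated upwards and 2 downwards, where 5.13% of all named genes were separated upwards and 5.3% downwards. The higher ones were the protocadherin gene Pcdh12 (2.49, SE 0.977, 1.29 without double-negative replicate 1), Ecscr, a regulator of endothelial migration (1.13, SE 0.452), and the adhesion receptor gene Adgrf5 (0.73, SE 0.341). The lower ones were Cldn5 and Icam1, an adhesion molecule for leukocytes (-1.64, SE 0.387). The VEGF receptor gene Flt1 was at 0.62 (SE 0.42, 0.41 without double-negative replicate 1) and the endothelial nitric oxide synthase gene Nos3 at 0.22 (SE 0.349), with overlapping groups.

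Transcription factor genes of early endothelium, several of which control the surface genes above, mostly had higher means. Of 11 measured, 9 had higher means, where 54.5% of all named genes did, and 5 were separated upwards, where 5.13% were. The median was 1.08 (0.60 without double-negative replicate 1), with 0 past the adjusted threshold in limma. Fli1 was at 2.24 (SE 0.65), Etv2 at 2.04 (SE 0.561), Tal1 at 1.76 (SE 0.838) and Sox7 at 1.71 (SE 0.437). The size of the Tal1 difference leans on the low value of double-negative replicate 3. Its ratios were 1.694, 2.047 and 1.407 in double-positive replicates against 1, 1.025 and 0.122 in double-negative ones (unadjusted p 0.0729 in limma). The 2 with lower means, both overlapping, were Sox17 (-0.80, SE 0.797) and Ets2 (-0.02, SE 0.615). For each of these 2 genes the other probe set pointed the other way. Genes of the Rap1 and RASIP1 pathway, which shapes vessel lumens, had a median of 0.32 over 9 measured genes (0.09 without double-negative replicate 1), with Rap1b (0.68, SE 0.346) the 1 separated upwards. Of the sialomucin family of CD34, Podxl was at 0.66 (SE 0.586) and Cd164 at -0.23 (SE 0.492, -0.52 without double-negative replicate 1), both with overlapping groups.

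**Figure D5:**
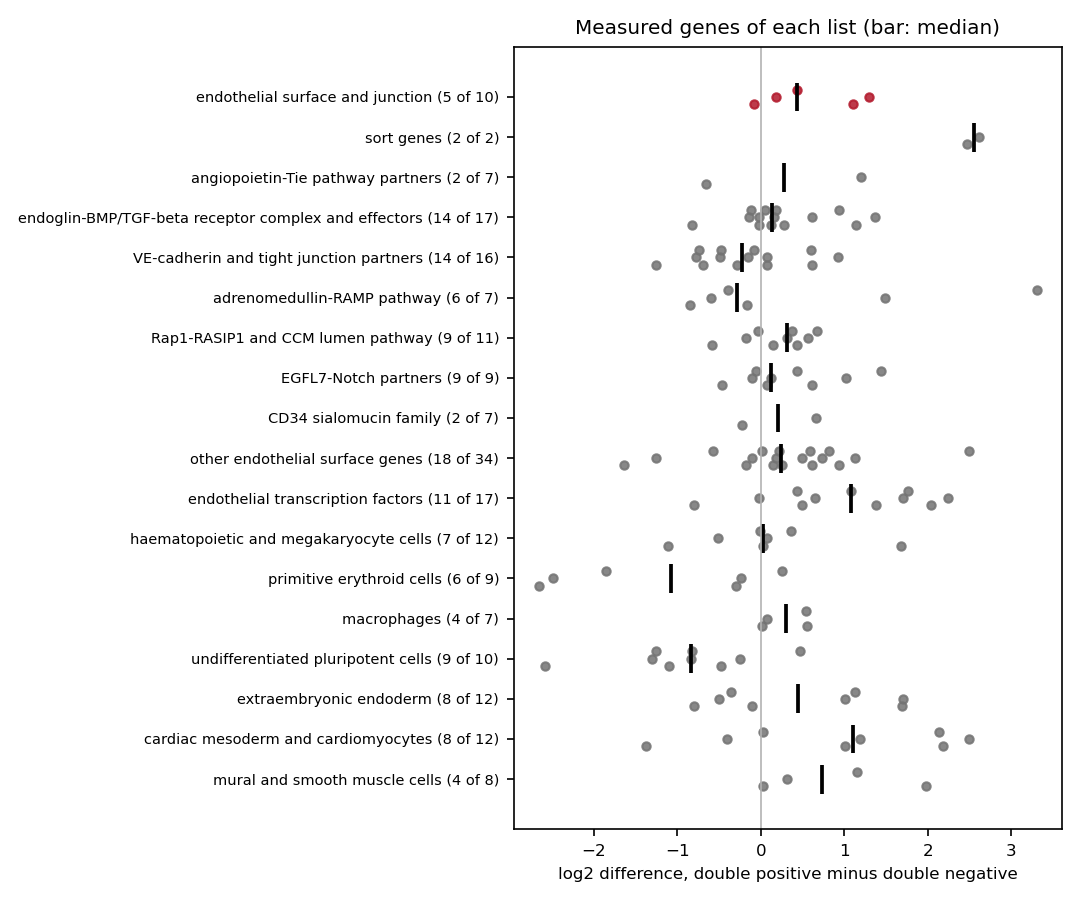
Log2 difference, double positive minus double negative, of every measured gene by list, 1 probe set per gene, with the number measured of those listed and a bar at the median. The endothelial surface and junction genes (red) run from -0.08 to 1.30, and the endothelial transcription factors have a median of 1.08.

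Several of these genes are also expressed outside endothelium, so markers of other cells are given beside them. Over all named genes 5.13% were separated upwards and 5.3% downwards. The 9 measured markers of undifferentiated pluripotent cells had a median of -0.83, with 8 lower and 5 separated downwards. Their geometric mean was 0.466 to 0.606 on double-positive arrays against 0.814 to 1.11 on double-negative ones. Of these Sox2 was at -2.58, Pou5f1 at -1.30, Nanog at -1.26 and Zfp42 at -1.10. Tdgf1, the 1 with a higher mean, was at 0.47 (0.02 without double-negative replicate 1). For 7 haematopoietic and megakaryocyte markers the geometric mean was 0.767 to 1.05 against 0.67 to 1.22. Runx1 was at 1.68 (SE 1.41) and Myb at -1.11 (SE 0.66), both overlapping, or 2.55 and -0.52 without double-negative replicate 1. The Runx1 difference rests on the low value of double-negative replicate 3. Its ratios were 0.805, 1.892 and 0.565 in double-positive replicates against 1.002, 1 and 0.0263 in double-negative ones. For 4 macrophage markers the geometric mean was 0.962 to 1.65 against 0.956 to 0.983, with Mrc1 at 0.56 and Adgre1 at 0.54 (0.34 for Adgre1 without double-negative replicate 1). The 6 primitive erythroid markers ran from 0.338 to 0.892 against 0.619 to 3.73, and Hba-a1 (-1.85, SE 0.454) was the 1 separated. The erythroid median was -1.08, and -0.14 without double-negative replicate 1. Cardiac mesoderm genes had a median of 1.10 over 8 measured (0.70 without that array), with Myl7 at 2.49, Hand2 at 2.18 and Myh6 at -1.37 separated. Myl7 was flagged on 4 arrays and Myh6 on 2, and the other Myh6 probe set pointed the other way. Of 4 mural and smooth muscle genes all had higher means and overlapping groups, with a median of 0.73, Rgs5 at 1.98, Pdgfrb at 1.15 and Acta2 at 0.03. Leaving out double-negative replicate 1 gave a median of 0.37, with Rgs5 at 1.59, Pdgfrb at 0.70 and Acta2 at -0.23. Of 8 extraembryonic endoderm genes 4 had higher and 4 lower means, with a median of 0.45 (0.24 without that array) and a geometric mean of 0.819 to 1.79 against 0.553 to 1.29. Sox7, which is also in the transcription factor list, was the 1 separated, while Sox17, in both lists too, was at -0.80, Foxa2 at -0.50, Dab2 at -0.35 and Ttr at -0.10, all overlapping. The part of these cells in the results for Tek, Ramp2 and Egfl7 was not tested. As ratios carry no zero, no marker can be said to be absent.

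The 5 genes whose profile over the 6 arrays was most like the mean of the endothelial surface and junction genes were Pinx1, Tsr2, Has2, Psmg3 and Zeb2, with Pearson r from 0.986 to 0.996 among 8026 genes flagged on all 6 arrays. The mean profile itself was 0.51, 0.58 and 0.57 on the log2 scale in double-positive replicates against -0.28, 0.24 and -0.07 in double-negative ones. With 6 points that share arrays and a group split, values this high arise readily when so many genes are compared, and they are given as a description.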

How the data were processed

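Total RNA of 6 sorted samples was labelled and hybridised to 1 array each, per the labels. The authors deposited linear ratios for 45101 probe sets, each divided by the median of its 3 double-negative values, which is 1 for 100% of probe sets. They also deposited a comparison table of 22584 probe sets with a fold, a p-value and a flag score, per the file headers. That score runs from 2 to 6 and was read as the number of arrays with detection. The fold in the deposited table equals the ratio of geometric group means within a tolerance of 1% for 100% of probe sets. How probes were summarised, corrected for background and scaled is not given in the sources used here. A ratio does not show how bright a probe set was, and precision is limited by having 3 arrays a group.

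After leaving out 64 control probe sets, log2 ratios without a pseudocount were fitted with limma 3.58.1 (R 4.3.3, lmFit and eBayes, two-sided) over 45037 probe sets, adjusted by Benjamini-Hochberg at 0.05. Differences are double positive minus double negative, and intervals are 95%. On simulated data with known changes the fit returned differences close to those put in, but the adjusted threshold was not reached by any of them, so an adjusted count of 0 does not show that genes did not differ. Names were updated through RefSeq (GRCm38.p6). A gene stood by the probe set with the highest flag score, then the plainest and then the lowest identifier. All 9 member probe sets are described. Of every other list, up to 4 genes without overlap between groups and with the largest differences were named, or else the 2 largest, and further genes were named for their role after their values were seen. The members and lists were chosen with earlier results of these data known. The labels state no pairing of samples by replicate number, and the fit reported used none. Deviations from group means correlated at 0.257, 0.139 and 0.055 for same-numbered arrays, and from -0.2 to 0.088 for the others. These values do not settle whether the samples were paired. Alternatives were a replicate block, pseudocounts of 0.1 and 1, quantile normalization, median centring, filters on the flag score, other variance models, array weights, a control index and leaving out arrays.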

Additional observations from a re-analysis of the deposited data

How the results depend on the processing

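The adjusted count was 0 in limma under every alternative run, both for the 9 probe sets and over all probe sets, where 2478 probe sets had an unadjusted p under 0.05. The count of the 9 probe sets with an unadjusted p under 0.05 was 2 in the fit reported and 4 with the replicate block, which adds Ramp2 1418188_a_at and 1438403_s_at on the lower side; it was 1 after quantile normalization. The block changed no adjusted call, and not every array correlated best with its own replicate number. Leaving out 1 array gave 1 to 3 such probe sets, with 1 without double-positive replicate 2. The count without overlap between groups ran from 2 to 5 when 1 array was left out, and was 5 without both replicate 1 arrays, where fewer values have to be ordered. It was 1 with a flag score of 6, where Tek is not tested. The cause of the other shifts was not tested. The median over the 5 genes ran from 0.16 to 0.64, and with a flag score of 6 it was 0.87 over the 2 genes left. Cdh5, at -0.08, ran from -0.16 to 0.02 when 1 array was left out and changed sign without double-positive replicate 1, Egfl7 without both replicate 1 arrays (-0.05) and Ramp2 as the mean over its probe sets (-0.32). Over the alternatives run, Tek ran from 0.64 to 1.30, the lowest with a pseudocount of 1, which shrinks ratios by construction, and had an unadjusted p under 0.05 in 14 of 17, and its adjusted p ran from 0.423 to 1. All alternatives refit the same 6 arrays or some of them, so this count is not independent evidence.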
